A study of Mus musculus with 4 samples.

Results

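The genes described here are 10 components of bone morphogenetic protein (BMP) signalling in endothelial cells (ECs), chosen by symbol from the 24063 gene symbols of the deposited tables. They are the ligands Bmp2, Bmp4 and Bmp6, the receptors Bmpr2, Acvrl1 (which encodes ALK1) and Eng (endoglin), the inhibitory SMADs Smad6 and Smad7, and the target genes Id1 and Id3. All 10 were found and all 10 passed the filter on low counts, which 16208 genes passed. RNA had been sequenced from CD31-selected lung cells of C57BL6 mice (C57BL6J in the study's methods) labelled as male and 8 week old, isolated from sham-operated lungs or at day 7 after unilateral pneumonectomy (PNX), in which the left lung is removed and the remaining lobes grow. There were 2 libraries per group with cells of 2 mice pooled in each, so differences between single mice cannot be seen. The labels name no transgene, and sham mice had a thoracotomy without removal of a lung. A gene with several transcripts was represented by the most counted one, and these counts summed to between 41367438 and 50952879 per library. Normalized counts below are counts scaled with edgeR's TMM factors to the mean size of the 4 libraries.

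BMP ligands bind a pair of type I and type II receptors, which phosphorylate SMAD1, SMAD5 and SMAD9, and these enter the nucleus with SMAD4 and switch on genes such as Id1 and Id3. Endothelium carries a receptor complex of its own, in which ALK1 and the type II receptor BMPR2, helped by endoglin, respond to BMP9 and BMP10 in the blood and hold vessels in a quiescent state. In humans, heterozygous loss of ENG or ACVRL1 causes hereditary haemorrhagic telangiectasia, and that of BMPR2 is the best known genetic cause of pulmonary arterial hypertension.

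After PNX the receptor genes and Bmp6 were lower, the inhibitory SMADs were lower by a smaller amount, Bmp2 was about 2-fold higher from a low level, and the target genes Id1 and Id3 differed by 0.06 or less on the log2 scale, or were higher when counts were scaled to endothelial markers. With an adjusted p under 0.01 in edgeR's quasi-likelihood (QL) F test, 7 of the 10 genes were called, 1 higher (Bmp2) and 6 lower (Bmp6, Bmpr2, Acvrl1, Eng, Smad6 and Smad7). Small changes passed this test widely, since 57.1% of all genes tested were called, 29.3% higher and 27.8% lower, and a count of 7 in 10 has to be read against that share. The median log2 fold change of the 10 genes was -0.33, beside 0.00 for all genes tested. Only Bmp2 was also beyond a log2 fold change of 1, a rule that 5.90% of all genes passed on the higher side.

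The libraries were checked against their labels first. Pecam1, which encodes the CD31 used for the selection, had 90946 ± 240 (SD, n = 2) normalized counts in sham and 90400 ± 294 (SD, n = 2) in post-PNX cells, a log2 fold change of -0.01 (adjusted p = 0.636, edgeR). All 44 genes of chromosome Y in the tables were without a count in all 4 libraries, and Xist, which is transcribed from the inactive X chromosome of females, had between 29890 and 36875 counts. The libraries of both groups therefore went against the label of male mice in the same way. Epithelial RNA was also present, with Sftpc, the surfactant gene of alveolar type 2 cells, at 171015 ± 364 (SD, n = 2) normalized counts in sham and 111027 ± 532 (SD, n = 2) in post-PNX cells, so the RNA was not endothelial alone.

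Marker lists of other cells moved between the groups and are given here beside the results below. Of 12 endothelial markers 10 were lower and 1 higher, with a median log2 fold change of -0.25 in a range from -0.53 (Flt1) to 0.11 (Emcn), and their summed normalized counts went from 506437 and 511443 in sham to 430819 and 432657 in post-PNX cells. All 5 general capillary markers were lower (median -0.64), as were all 6 epithelial markers (median -0.64). All 6 macrophage markers (median 1.02), 5 of 6 fibroblast markers (median 2.29), 5 of 6 smooth muscle and pericyte markers (median 0.46) and all 4 mesothelial markers (median 1.52) were higher. Leukocyte markers were divided (2 higher, 1 lower, median 0.08), and so were the lists of aerocyte (2 higher, 3 lower, median -0.40), arterial (2 higher, 3 lower, median -0.11), venous (2 higher, 2 lower, median 0.03) and lymphatic endothelium (1 higher, 1 lower, median -0.00). Of the megakaryocyte and platelet markers 3 of 4 were higher (median 0.32), and of the erythroid markers 2 of 3 (median 0.50). Because the summed endothelial markers were lower, the same comparison was also made with counts scaled to them, which added about 0.24 to the log2 fold change of every gene. The part of these cell types in the results below was not tested, and in bulk samples fewer cells of a type and less RNA per cell cannot be told apart.

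**Figure D1:**
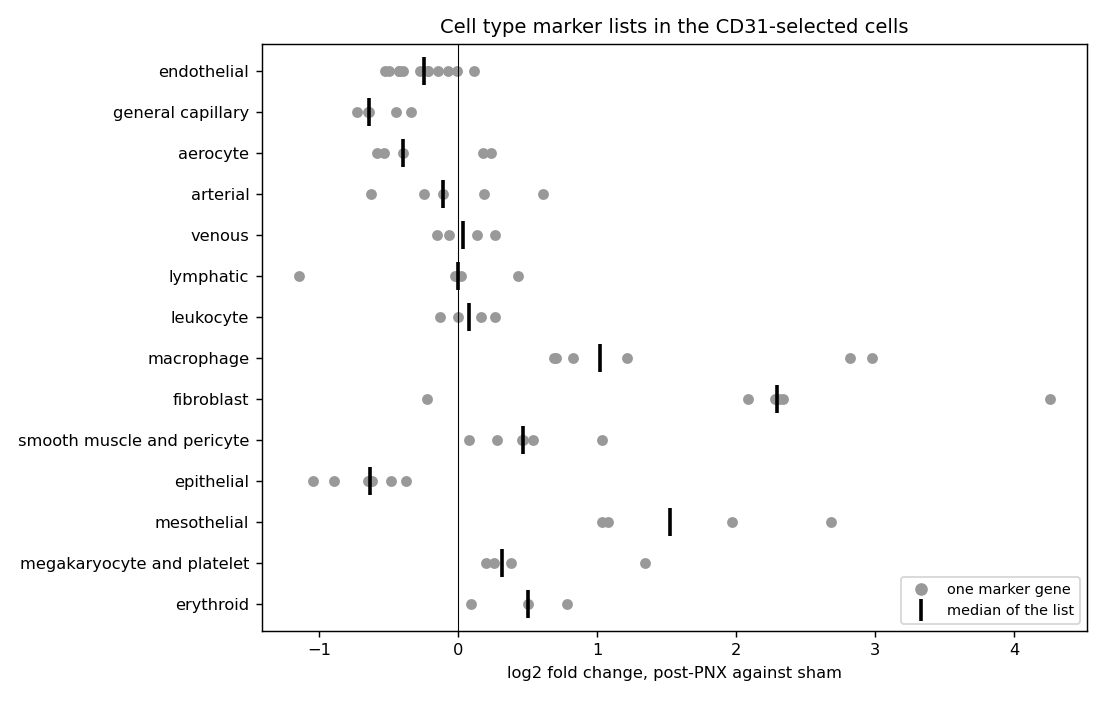
Log2 fold change of each marker gene (grey points) and the median of its list (black bar) in CD31-selected cells, post-PNX against sham, with 2 libraries per group. The endothelial, general capillary and epithelial medians lie at -0.25, -0.64 and -0.64, and the macrophage, fibroblast and mesothelial medians at 1.02, 2.29 and 1.52.

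On a scale that takes transcript length into account, the deposited TPM, Acvrl1 and Eng stood highest among the 10 genes. Acvrl1 had 723 and 732 TPM in the sham libraries, and Eng had 720 and 728, so these neighbours in the order did not differ beyond their spread. After PNX they were apart, with 527 and 527 TPM for Acvrl1 and 487 and 485 for Eng. Id3 (447 and 449 TPM in sham) and Id1 (320 and 321) followed in every library. Bmp6 had 220 and 222 TPM in sham and Bmpr2 had 215 and 199.7, both above Smad6 with 177 and 182. In both post-PNX libraries Smad6, with 136 and 139.9 TPM, stood above Bmp6 (125 and 127) and Bmpr2 (117 and 116). Smad7 (58.4 and 58.8 TPM in sham), Bmp4 (42.1 and 42.7) and Bmp2 (2.34 and 2.58) were the lowest of the 10 in all 4 libraries. TPM was scaled over all transcripts, and the transcripts of Acvrl1, like those of Eng, had nearly the same counts as each other. These levels therefore serve for the order of the genes and not for the test.

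**Figure D2:**
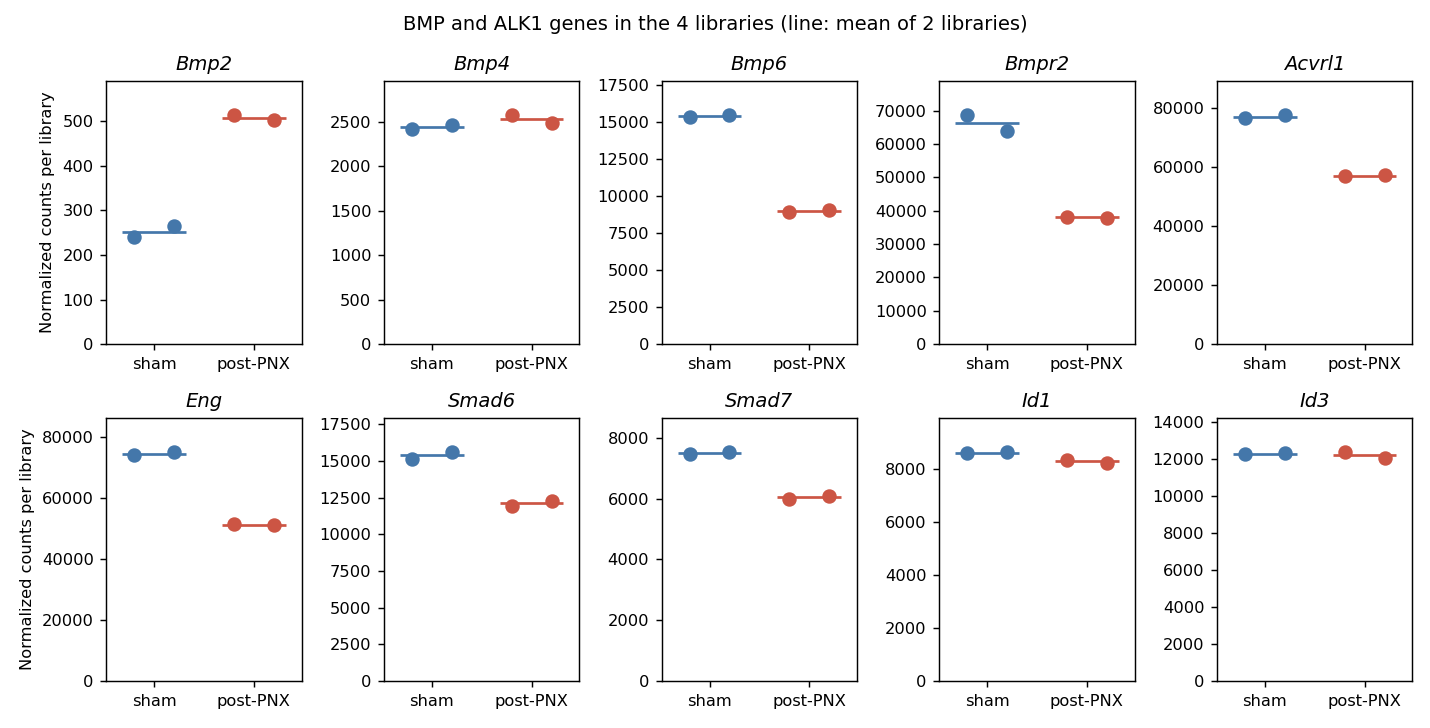
Normalized counts of the 10 genes (vertical axes, each from 0) in the 2 sham (blue) and 2 post-PNX libraries (red), with replicate 1 at the left in each pair and a line at the mean. The pairs are apart for Bmp2 (higher after PNX) and for Bmp6, Bmpr2, Acvrl1, Eng, Smad6 and Smad7 (lower), while Id3 overlaps and Bmp4 and Id1 lie close together.

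The stretches upstream of the transcription start are shown for a pair of receptor genes that fell together, Bmpr2 and Eng, and for a pair of known BMP target genes of which one fell and one did not, Smad6 and Id3. They are the 250 bases before a transcription start in the RefSeq annotation of GRCm38.p6 (the assembly of mm10), written 5′ to 3′ on the strand of the gene. The start used for Smad6 lies inside the span of the gene given below, so that its window takes in the outer end of that span, while the other windows end where the span begins. Capitals mark matches on either strand to GGCGCC, a GC-rich motif bound by SMAD1 and SMAD5 that is its own reverse complement, or to GTCTG, the SMAD box, whose reverse complement is CAGAC. Bmpr2 lies at chr1:59764029-59764278, plus strand, Eng at chr2:32646345-32646594, plus strand, Smad6 at chr9:64022060-64022309, minus strand and Id3 at chr4:136143572-136143821, plus strand.
Bmpr2: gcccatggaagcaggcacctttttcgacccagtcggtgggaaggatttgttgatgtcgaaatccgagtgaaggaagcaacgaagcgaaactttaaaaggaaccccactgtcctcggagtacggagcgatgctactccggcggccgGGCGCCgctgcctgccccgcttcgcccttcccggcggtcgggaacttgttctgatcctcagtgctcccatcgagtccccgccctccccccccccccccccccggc
Eng: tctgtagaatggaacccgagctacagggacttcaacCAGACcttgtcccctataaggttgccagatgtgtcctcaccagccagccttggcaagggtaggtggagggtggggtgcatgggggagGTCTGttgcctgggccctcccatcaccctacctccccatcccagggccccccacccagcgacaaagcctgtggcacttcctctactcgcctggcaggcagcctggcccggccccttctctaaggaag
Smad6: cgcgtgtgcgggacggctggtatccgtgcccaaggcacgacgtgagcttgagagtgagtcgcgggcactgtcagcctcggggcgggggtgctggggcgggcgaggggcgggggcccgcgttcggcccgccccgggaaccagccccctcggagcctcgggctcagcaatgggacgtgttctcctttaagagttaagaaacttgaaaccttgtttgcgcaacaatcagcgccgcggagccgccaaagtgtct
Id3: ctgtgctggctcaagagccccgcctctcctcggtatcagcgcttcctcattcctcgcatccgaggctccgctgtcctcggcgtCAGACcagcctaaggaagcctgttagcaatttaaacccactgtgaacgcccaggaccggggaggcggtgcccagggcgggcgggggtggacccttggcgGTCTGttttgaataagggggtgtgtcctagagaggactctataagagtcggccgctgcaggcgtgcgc

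Sequences were matched for 6 of the 10 genes. GGCGCC was found once, 105 bases before the start of Bmpr2, and 9.59% of 32851 windows of the same length in the table held it. The SMAD box was found at 214 and 127 bases before the start of Eng, at 167 and 68 bases before that of Id3 and at 119 bases before that of Bmp6, and 42.2% of the windows held it. The windows of Smad6 and Bmp4 held neither. A match describes the letters and is not a measured binding site. In CpG content the windows of Smad6 (27 CpG), Bmpr2 (22), Bmp6 (22), Id3 (18) and Bmp4 (11) were above the median window with 6, and that of Eng (4) was below it.

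Bmpr2, on chromosome 1 from 59764279 to 59878081 (mm10), encodes the type II receptor that activates ALK1. It had 68587 and 63910 normalized counts in sham and 38155 and 37942 in post-PNX cells. The groups were far apart, although the sham libraries differed more from each other (SD 3307) than the post-PNX libraries did (SD 150.3). Bmpr2 fell by 42.6%, a log2 fold change of -0.80 (SE 0.019, adjusted p = 3.5e-43, edgeR), below all 12 endothelial markers and lower than all but 3.54% of the genes tested. The 5 general capillary markers lay between -0.73 (Ptprb) and -0.34 (Kit), and Lyve1 of the lymphatic list was lower than Bmpr2, at -1.14. Scaled to the endothelial markers Bmpr2 was -0.56 (SE 0.022, adjusted p = 6.8e-20, edgeR).

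Eng, on chromosome 2 from 32646595 to 32682669, encodes endoglin, the co-receptor that presents BMP9 and BMP10 to ALK1. It had 74145 and 75093 normalized counts in sham and 51373 and 51133 in post-PNX cells, without overlap. Eng fell by 31.3%, a log2 fold change of -0.54 (SE 0.016, adjusted p = 5.3e-38, edgeR). This lay just under the lowest of the 12 endothelial markers, Flt1 at -0.53, and was -0.30 when counts were scaled to those markers. The median of the general capillary markers, -0.64 under TMM, was lower than Eng. The 3 Eng transcripts in the tables had nearly the same counts, from 81839 to 81845 in the first sham library, so the files do not separate the long and the short form of endoglin. Eng overlaps Fpgs in the annotation, and Fpgs had 1197 normalized counts in sham and 1057 in post-PNX cells.

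Acvrl1, on chromosome 15 from 101128522 to 101145336, encodes ALK1, the type I receptor of arterial and capillary endothelium. The sham libraries had 76364 and 77361 normalized counts, and the post-PNX libraries had 56945 and 57056. Acvrl1 fell by 25.8%, a log2 fold change of -0.43 (SE 0.016, adjusted p = 5.6e-33, edgeR), which was within the range of the endothelial markers, 2 of which fell more. With the scaling to these markers it was -0.19 (SE 0.015, adjusted p = 1.1e-12, edgeR). The median of the general capillary markers, -0.64 under TMM, was lower than Acvrl1. Its 5 transcripts in the tables had from 84210 to 84294 counts in the first sham library.

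The receptors can also be compared with each other inside a library, where no scaling enters. The mix of cells still enters such a comparison, and its part was not tested. For each Acvrl1 count there were 0.898 and 0.826 Bmpr2 counts in sham and 0.670 and 0.665 in post-PNX cells. The ratio of Eng to Acvrl1 counts went from 0.971 in both sham libraries to 0.902 and 0.896. Both ratios were lower in each post-PNX library than in each sham library, so the loss of counts was unequal among the 3 receptor genes, with the order Bmpr2, Eng, Acvrl1.

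Among the ligands, Bmp6, on chromosome 13 from 38345716 to 38500314, is made by endothelium and is known for its role in iron balance in the liver. It had 15296 and 15437 normalized counts in sham and 8901 and 9066 in post-PNX cells. The groups did not overlap, and the libraries of a group lay close together (SD 99.7 in sham and 117 after PNX). Bmp6 fell by 41.5%, a log2 fold change of -0.77 (SE 0.021, adjusted p = 2.9e-40, edgeR), again below all 12 endothelial markers, and was -0.54 when scaled to them. The lowest general capillary marker, Ptprb, was near it at -0.73 under TMM. Bmp6 overlaps Txndc5 in the annotation, which went the other way, with a log2 fold change of 0.42.

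Bmp2, on chromosome 2 from 133552159 to 133562896, encodes a ligand that acts mainly through other type I receptors than ALK1. It had 265 and 260 counts in sham and 522 and 451 in post-PNX cells, that is 240 and 265 against 513 and 503 normalized counts. Both post-PNX libraries were about 2-fold above both sham libraries, at the lowest level of the 10 genes. The log2 fold change was 1.01 (SE 0.083, adjusted p = 9.2e-17, edgeR), with a 95% interval from 0.85 to 1.18, and its place beyond 1 was lost without the first sham library (0.94) or without the first post-PNX library (0.997). Markers of macrophages, fibroblasts and mesothelium were higher in the same libraries, and their part in this rise was not tested. There were 0.0157 and 0.0172 Bmp2 counts per Bmp6 count in sham and 0.0576 and 0.0554 in post-PNX cells.

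Bmp4, on chromosome 14 from 46383525 to 46390669, encodes a close relative of BMP2. Its normalized counts were 2422 and 2460 in sham and 2571 and 2486 in post-PNX cells, so that the groups nearly touched. The log2 fold change of 0.05 (SE 0.034, adjusted p = 0.178, edgeR) had a 95% interval from -0.02 to 0.12. Under the scaling to endothelial markers it was 0.29 (adjusted p = 1.2e-08, edgeR), past the threshold, beside a median of 0.24 for all genes tested.

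**Figure D3:**
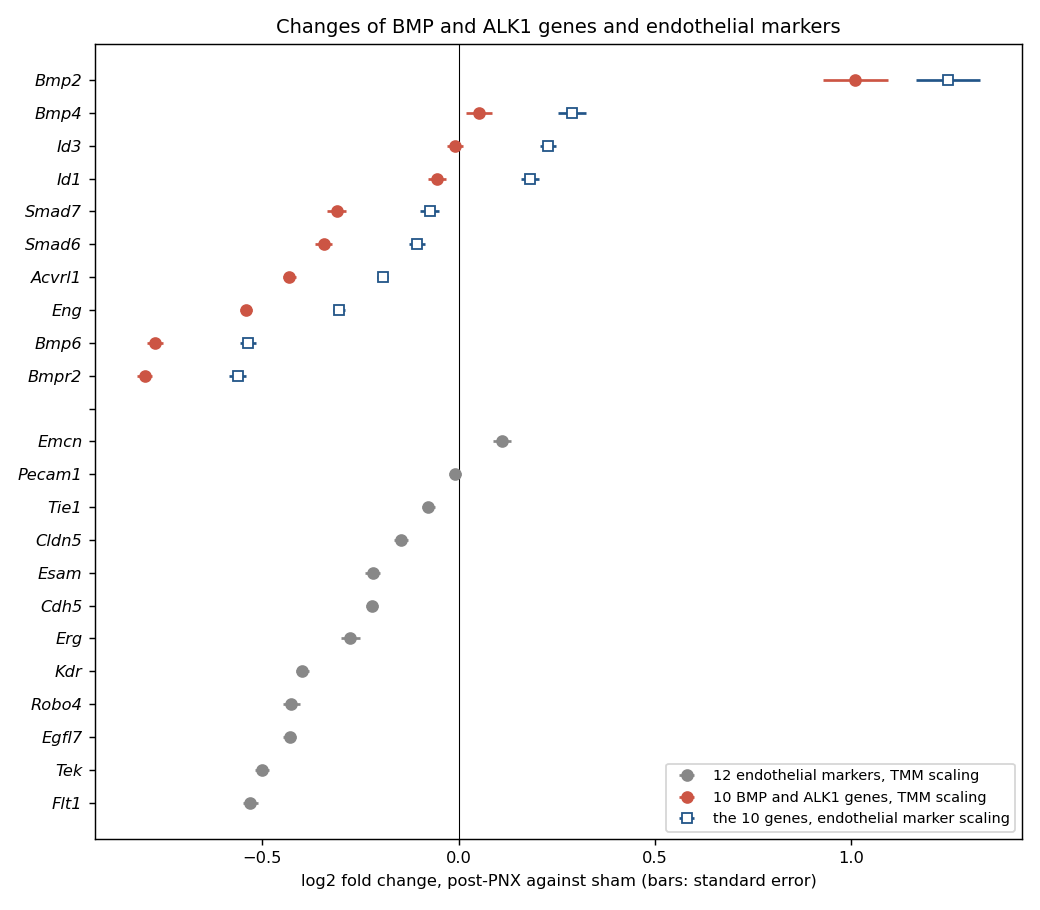
Log2 fold change with its standard error, post-PNX against sham, for the 10 BMP and ALK1 genes under TMM scaling (red) and under scaling to endothelial markers (open squares), and for the 12 endothelial markers under TMM (grey). Bmpr2 (-0.80), Bmp6 (-0.77) and Eng (-0.54) lie below the lowest of these 12 markers, Flt1 (-0.53), and Id1 and Id3 lie on opposite sides of 0 under the 2 scalings. The general capillary markers, with a median of -0.64, are not drawn.

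Smad6, on chromosome 9 from 63953076 to 64022085, encodes an inhibitory SMAD that is induced by BMP signalling and blocks it in return. It had 15144 and 15605 normalized counts in sham and 11948 and 12276 in post-PNX cells. Smad6 fell by 21.2%, a log2 fold change of -0.34 (SE 0.021, adjusted p = 1.6e-22, edgeR), with 5 of the 12 endothelial markers lower. The second inhibitory SMAD, Smad7, on chromosome 18 from 75367365 to 75395935, also acts on the TGF-beta branch. With 7471 and 7533 normalized counts in sham and 6004 and 6090 after PNX, it fell by 19.4%, a log2 fold change of -0.31 (SE 0.024, adjusted p = 7.6e-18, edgeR). Scaled to the endothelial markers the changes were -0.11 for Smad6 (adjusted p = 3.4e-05, edgeR) and -0.07 for Smad7 (adjusted p = 0.00704, edgeR). The direction and the call of both were kept.

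Id1, on chromosome 2 from 152736251 to 152737410, encodes a helix-loop-helix protein without a DNA-binding region that holds other transcription factors inactive, and is the standard readout of BMP signalling in ECs. It had 8604 and 8653 normalized counts in sham and 8364 and 8237 in post-PNX cells. Both post-PNX libraries were a little below both sham libraries, and the log2 fold change of -0.06 (SE 0.023, adjusted p = 0.0270, edgeR) missed the threshold of 0.01. The 95% interval ran from -0.10 to -0.01. Id3, on chromosome 4 from 136143822 to 136145392, encodes a related protein with the same targets. Its normalized counts, 12284 and 12349 in sham and 12396 and 12074 after PNX, overlapped between the groups. The log2 fold change was -0.01 (SE 0.021, adjusted p = 0.714, edgeR), with a 95% interval from -0.05 to 0.03. Relative to the endothelial markers, Id1 and Id3 were higher after PNX, by 0.18 (adjusted p = 2.5e-08, edgeR) and 0.23 (adjusted p = 5.8e-11, edgeR) on the log2 scale. Their direction thus depends on the scaling. The median of all genes tested was 0.24 under the endothelial scaling, so neither gene lay above it.

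Under that scaling 4 of the 10 genes were called higher (Bmp2, Bmp4, Id1 and Id3) and 6 lower, beside 66.1% of all genes tested that were called, 56.5% higher and 9.56% lower. The 6 lower genes were the same as under TMM. Inside single libraries the inhibitory SMADs and the Id genes moved apart without any scaling. Such ratios still depend on the mix of cells, whose part was not tested. There were 1.76 and 1.80 Smad6 counts per Id1 count in sham and 1.43 and 1.49 in post-PNX cells. The ratio of Smad7 to Id3 counts was 0.608 and 0.610 in sham and 0.484 and 0.504 in post-PNX cells. Against the receptor, Id1 had 0.113 and 0.112 counts per Acvrl1 count in sham and 0.147 and 0.144 after PNX, while Smad6 had 0.198 and 0.202 in sham and 0.210 and 0.215 after PNX.

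The wider pathway was described with a list of 57 genes grouped by role, of which 48 passed the filter on low counts. Of these 48, 31 (64.6%) were called, 11 higher and 20 lower, with a median log2 fold change of -0.00, and without the 10 genes above it was 10 higher and 14 lower of 38. Of all genes tested, 57.1% were called under TMM, 29.3% higher and 27.8% lower. With scaling to the endothelial markers 36 of the 48 were called, 23 higher and 13 lower. Under that scaling 66.1% of all genes were called, 56.5% higher and 9.56% lower. The counts in each direction thus depended on the scaling, in the list as among all genes.

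The ligands of ALK1 were scarce. Gdf2, which encodes BMP9 and is made mainly in the liver, had 34, 20, 38 and 21 counts in the first and second sham and the first and second post-PNX library, a log2 fold change of 0.25 (SE 0.29, adjusted p = 0.469, edgeR). Bmp10, made mainly in the heart, had 1 count in the first sham library and no count in the others, where 3 counts, the upper limit that a count of 0 allows, are between 0.0641 and 0.0725 CPM. Among the other ligands Gdf6 was the largest change, from 16.3 and 14.3 to 141.5 and 113 normalized counts, a log2 fold change of 3.05 (SE 0.23, adjusted p = 2.5e-18, edgeR). Bmp5 was higher by 0.13 on the log2 scale, Bmp3 was lower by a log2 fold change of -0.18 that turned to 0.06 under endothelial scaling, and Bmp7 (-0.06) was not called. The calls of Bmp5 and Bmp3 were lost with the DESeq2 Wald test (adjusted p = 0.0277 and 0.0372), that of Bmp5 also without the first post-PNX library (0.0239) and that of Bmp3 without the second sham (0.0121) or second post-PNX library (0.0368).

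Of 10 receptors and co-receptors tested, 6 were lower, 0 were higher and 4 were not called. The share called (60%) was near the 57.1% of all genes, but all of these calls were lower, beside 27.8% of all genes called lower and 29.3% higher. Besides the 3 described above, the lower genes were the type II receptors Acvr2a (-0.30) and Acvr2b (-0.34) and the co-receptor Rgmb (-0.22). None of these passed under endothelial scaling, where Rgmb was 0.01. The call of Acvr2b was also lost with the DESeq2 Wald test (adjusted p = 0.0669) and, in edgeR, without either sham library or the second post-PNX library (adjusted p from 0.0119 to 0.0607). The type I receptors of BMP2 and BMP4 did not follow ALK1. Bmpr1a, with 2594 and 2624 normalized counts in sham and 2702 and 2714 in post-PNX cells, had a log2 fold change of 0.05 (SE 0.033, adjusted p = 0.145, edgeR). Acvr1 had a log2 fold change of 0.08 (SE 0.039, adjusted p = 0.0695, edgeR) and Bmpr1b, at 85.4 ± 21.4 (SD, n = 2) normalized counts in sham, one of 0.05 (SE 0.17). Bmpr1a and Acvr1 were called higher under endothelial scaling, at 0.29 and 0.32, beside a median of 0.24 for all genes tested.

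The SMAD transducers moved in different directions. Smad9, which encodes SMAD8 and is itself a BMP target, went from 686 and 688 to 452 and 498 normalized counts, a log2 fold change of -0.54 (SE 0.067, adjusted p = 2.4e-10, edgeR). Smad1 was higher, from 1884 and 1905 to 2183 and 2267 normalized counts, a log2 fold change of 0.23 (SE 0.037, adjusted p = 1.9e-07, edgeR). Smad5, the most counted of the 3, had a log2 fold change of 0.01 (SE 0.025, adjusted p = 0.715, edgeR), and the shared partner Smad4 one of -0.19, which became 0.05 under endothelial scaling. Of the other inhibitors, Smurf2, a ubiquitin ligase that removes receptors and SMADs, went from 15480 and 15131 to 10578 and 10584 normalized counts (log2 fold change -0.53, adjusted p = 4.8e-32, edgeR), and Smurf1 had -0.27, which was not called under endothelial scaling (-0.03). Fkbp1a, whose product FKBP12 keeps type I receptors inactive, was higher by 0.30 on the log2 scale (adjusted p = 4.3e-23, edgeR). Bambi, a decoy receptor, had 0.07 and was not called. Under endothelial scaling Bambi (0.30, adjusted p = 1.7e-05, edgeR) and Smad5 (0.25, adjusted p = 5.3e-10, edgeR) were called higher, as were 56.5% of all genes. The calls of Smad9, Smad1, Smurf2 and Fkbp1a were kept.

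Secreted antagonists and modulators spread widely in both directions, with 4 of 11 higher and 3 lower, a share called (63.6%) near the 57.1% of all genes. Mgp, matrix Gla protein, which binds BMP2 and BMP4, rose from 32363 and 33110 to 69476 and 69841 normalized counts, a log2 fold change of 1.09 (SE 0.017, adjusted p = 2.5e-53, edgeR). Chrd, which encodes the antagonist chordin, went from 103 and 107 to 227 and 267 normalized counts, a log2 fold change of 1.23 (SE 0.12, adjusted p = 2.3e-13, edgeR). Fst (follistatin, 0.71) and Bmper (0.27) were higher as well. Chrdl1, a chordin-like antagonist, fell from 549.9 and 589 to 343 and 339.8 normalized counts, a log2 fold change of -0.74 (SE 0.075, adjusted p = 3.8e-13, edgeR), and Crim1 (-0.43) fell too. These 6 calls were kept with endothelial scaling. The fibroblast and mesothelial lists rose and the epithelial and general capillary lists fell in the same libraries, and their part in the changes of secreted modulators was not tested.

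Of 9 target genes tested, 3 were lower under TMM, 2 were higher and 4, Id1 and Id3 among them, were not called. The share called (55.6%) was close to the 57.1% of all genes. The lower genes were Hey1 (8721 and 8680 against 6272 and 6247 normalized counts, log2 fold change -0.47, adjusted p = 6.8e-27, edgeR), which is also a Notch target, Tmem100 (60879 and 60234 against 45134 and 45936, log2 fold change -0.41, adjusted p = 3.8e-31, edgeR), which lies downstream of ALK1 in endothelium, and Atoh8 (log2 fold change -0.39, adjusted p = 6.9e-07, edgeR). Hey1 and Tmem100 stayed below sham under endothelial scaling, at -0.24 and -0.17, while Atoh8 at -0.16 was no longer called. The other targets tested, Id1, Id2, Id3, Id4, Hey2 (0.41) and Msx1 (0.54), were all called higher under that scaling, as were 56.5% of all genes. Id2 was higher, from 3578 and 3481 to 3985 and 4267 normalized counts, a log2 fold change of 0.22 (SE 0.031, adjusted p = 3.6e-09, edgeR), and so was Msx1 (0.31), whose call was lost with the DESeq2 Wald test (adjusted p = 0.0344) and without the first post-PNX library (adjusted p = 0.0240, edgeR). The calls of the Id family were thus divided under TMM only, with Id2 called higher and Id1, Id3 and Id4 (0.08) not called. The 95% intervals of Id1 and Id3 lay below the 0.22 of Id2. That of Id4, from -0.14 to 0.30, included it, so a difference between Id4 and Id2 was not shown.

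**Figure D4:**
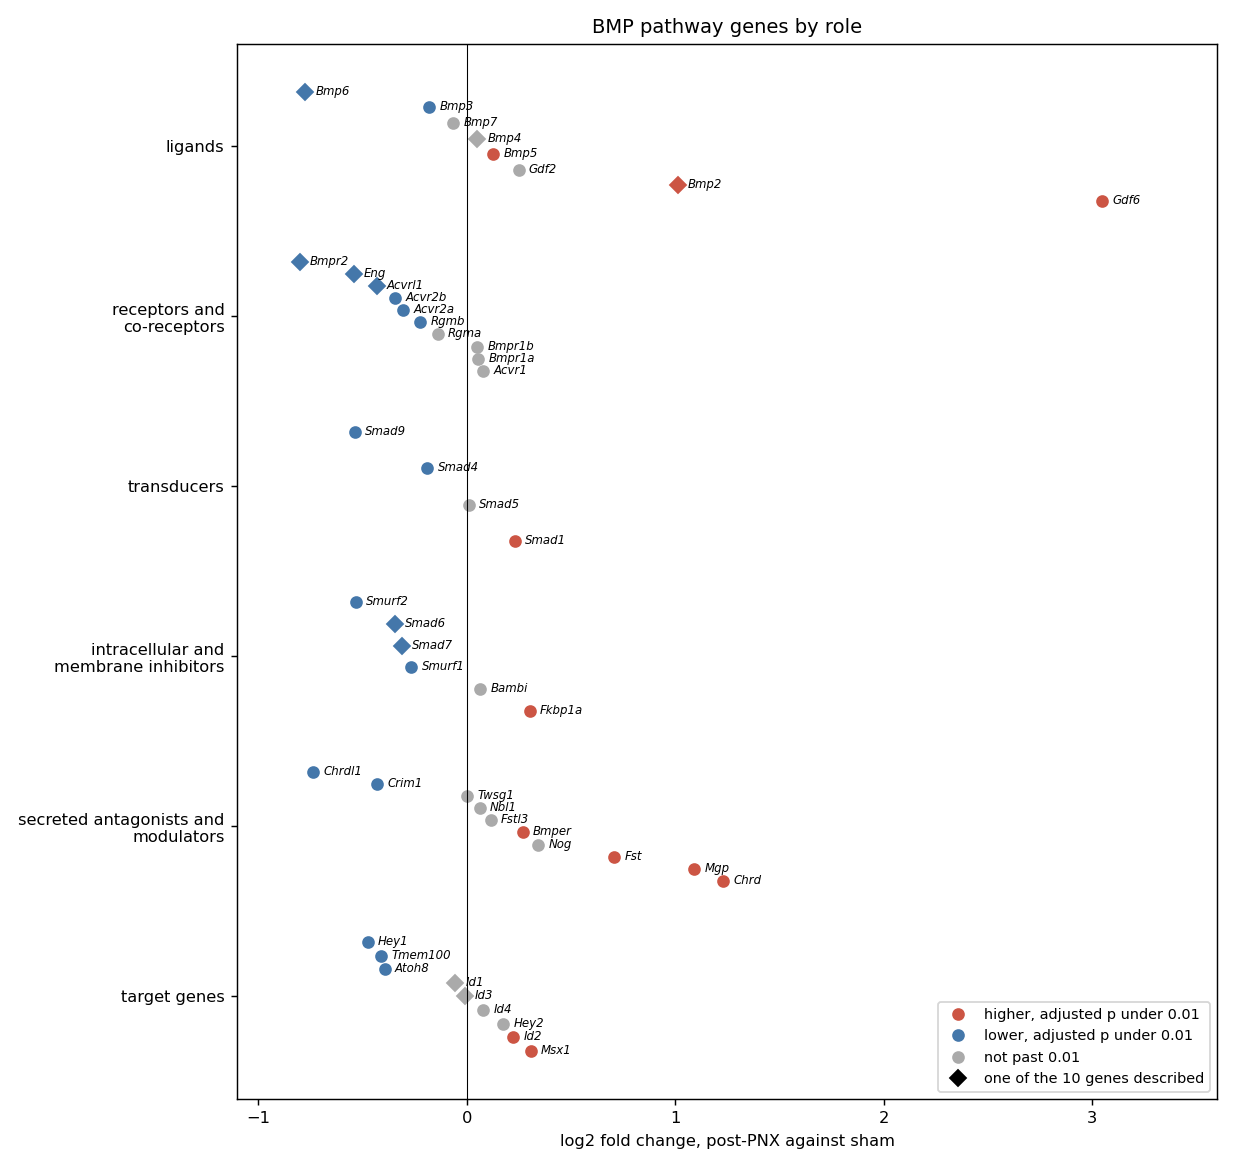
Log2 fold change, post-PNX against sham, of BMP pathway genes, in rows by role; diamonds are the 10 genes described first, and colours give the call at an adjusted p of 0.01. Receptors lie between -0.80 (Bmpr2) and 0.08 (Acvr1), the secreted modulators Chrdl1 and Chrd lie at -0.74 and 1.23, and Gdf6 lies apart at 3.05.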

How the data were processed

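RNA-seq had been done on 4 libraries of CD31 bead-selected lung cells (2 sham, 2 post-PNX), from stranded mRNA libraries with paired ends. Per the submitters' processing notes reads were aligned with STAR to mm10, and the counting program and its strand setting are not given in the sources used here. The authors deposited read counts, TPM and FPKM for 33068 transcripts per library, of which the counts were tested, the TPM gave levels per length, and the FPKM were not otherwise used.

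For each of 24063 symbols the most counted transcript was kept, giving totals from 41367438 to 50952879 per library (3 counts, the limit that a count of 0 allows, equal 0.0589 to 0.0725 CPM, counting error only). Genes were filtered with filterByExpr (minimum count 10), scaled by TMM (factors 0.998 to 1.00) and tested with the QL F test of edgeR 4.0.16 in R 4.3.3 without covariates, with Benjamini-Hochberg adjustment over 16208 genes. Genes were called at an adjusted p under 0.01. Nothing in the labels pairs libraries across groups, and same-numbered libraries did not deviate together (correlation 0.0303). The p-values rest on the spread between these libraries, whose counts differed little beyond counting noise (mean chi-square per gene 1.74 between the sham and 1.51 between the post-PNX libraries). In the QL F test the variance of a gene is estimated partly from the other genes. A standard error is therefore not that gene's own spread alone, which matters for Bmpr2, whose sham libraries differed more.

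The 10 genes and all gene lists were chosen with earlier results of these data known. Beyond the 10 genes, the text names the ALK1 ligands, the type I receptors, the SMAD transducers, Id2, Hey1, Tmem100, Atoh8, the 8 largest rises and 8 largest falls of the pathway list (mean normalized count 50 or more), and the extremes of marker lists. Bmp3, Bmp5, Bmp7, Acvr2a, Acvr2b, Rgmb, Smurf1, Bambi, Id4 and Hey2 were added after their values were seen. The values of 1 gene of the pathway list are not reported here, although it enters the list's counts. The script was tested on simulated data. Alternatives were other scalings, filters, thresholds, the DESeq2 1.42.0 Wald test, a replicate block, summed transcripts and leaving out each library.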

Additional observations from a re-analysis of the deposited data

How the results depend on the processing

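The 7 calls among the 10 BMP and ALK1 genes, 1 higher and 6 lower, were also found with DESeq2 size factors, library size alone, either filter, the DESeq2 Wald test, summed transcripts, the replicate block and in each fit without 1 library, where a lone library is assumed to vary like the other group. An adjusted p under 0.05 added Id1. Under scaling to endothelial markers 4 were higher, with Bmp4 at 0.29, Id1 reversed to 0.18 and Id3 to 0.23. Id3 was also reversed without post-PNX replicate 2 (0.010), and ranged from -0.0271 to 0.010 without single libraries. The count beyond 2-fold ranged from 0 to 1 without single libraries. For the pathway list, endothelial scaling gave 23 higher and 13 lower in place of 11 and 20. For all genes it gave 9158 higher, 1550 lower and 91 lower beyond 2-fold, in place of 4745, 4513 and 269, and a mean of at least 50 counts left 160 lower beyond 2-fold. With the replicate block 9441 of all genes were called beside 9258 without it, 31 of the pathway list with 11 higher and 20 lower, and 7 of the 10 genes, none of whose calls changed. DESeq2's Wald test called 6772 of all genes and 27 of the pathway list (9 higher, 18 lower), without Bmp3, Bmp5, Acvr2b and Msx1, and leaving out single libraries left 29 to 30 of the list. The causes of these differences were not tested. With 2 pools per group, variation between single mice was not measured.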
